A study of Sus scrofa with 6 samples.

Results

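The RBM genes are named for the RNA-binding motif, a fold that lets a protein grip single-stranded RNA. Members were taken as every gene of the protein-coding table whose pig symbol, found from its Ensembl identifier, starts with RBM. That rule found 35 genes of 21280. A further 3 RBM symbols of the name table, RBM4, RBM20 and RBM34, were not analysed here.

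Brain tissue of 3 wild boars was set against that of 3 Rongchang pigs, domestic animals of a breed from China. Every animal was a female of 2 years, by its labels. The wild boar libraries carry the label brain and the Rongchang pig libraries cerebrum, while the title of the series speaks of prefrontal cortex. The Rongchang pig libraries were taken over from an earlier deposit. Breed, source of the libraries and labelled tissue divide the samples in the same way, so their parts in any difference cannot be told apart. All libraries came from total RNA after removal of ribosomal RNA, so unspliced nuclear RNA and circular RNA were kept. Neuronal and glial markers were present in both groups at widely different levels. The group means of 10 neuronal markers ran from 2.77 to 858 TPM (transcript abundance scaled to gene length and to the library's total) in wild boar and from 2.71 to 1102 TPM in Rongchang pig, with RBFOX3 the lowest, and those of 7 microglial markers from 4.72 to 18.1 TPM in wild boar and from 4.55 to 18.8 TPM in Rongchang pig. The highest neuronal marker, SNAP25, averaged 858 TPM in wild boar and 1102 TPM in Rongchang pig, and MBP 1003 TPM in wild boar and 1141 TPM in Rongchang pig.

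Most RBM proteins act in the nucleus. Some help the spliceosome choose exons, some sit on the spliceosome or on spliced RNA, others bring the enzymes that mark or destroy RNA, and a few build ribosomes or are induced by cold. Many splicing regulators, SR proteins above all, make RNA forms with retained introns or poison exons, which help control their own level. In brain, RBM proteins are part of the splicing programmes that neurons use.

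The listed protein-coding genes summed to between 17.17% and 31.04% of 1000000 TPM in wild boar and between 23.49% and 40.88% in Rongchang pig, so a change in RNA outside the list moves every listed gene. Each comparison is therefore given on the deposited scale, after rescaling each library by its median ratio to the other libraries, and as a ratio to splicing genes in the same library. The median log2 fold change of all 11752 tested genes, wild boar over Rongchang pig, was -0.41 on the deposited scale and 0.07 after rescaling. Of 10 vessel wall markers 3 rose after rescaling and 7 did not pass, and their summed rescaled level was 67.52 to 94.05 TPM in wild boar and 34.75 to 44.63 TPM in Rongchang pig. All 4 red blood cell genes rose, with a rescaled sum of 460.9 to 1337 TPM in wild boar and 81.39 to 225 TPM in Rongchang pig. Of 10 neuronal markers 2 rose, SLC17A7 and RBFOX3 at log2 0.87 and 0.48, 1 fell, SLC17A6 at -1.10, and 7 did not pass. The rescaled sum of the 10, with SNAP25 the highest, was 1700 to 2043 TPM in wild boar and 1607 to 2095 TPM in Rongchang pig. No marker of these 3 lists was at 0 in any library. Of 7 astrocyte markers ALDOC rose and 6 did not pass, and of 7 microglial markers C1QA rose and 6 did not pass. Of 8 oligodendrocyte markers OLIG1 and OLIG2 rose, ERMN fell and 5 did not pass. Of all tested genes 7.91% passed as lower and 11.6% as higher after rescaling. The part of these cell types in the RBM results was not tested, and in bulk tissue fewer cells of a type and less RNA per cell cannot be told apart.

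The RBM genes spanned a wide range of levels. RBM39, a splicing factor also known as a coactivator of nuclear receptors, was the most abundant at 85.0 TPM averaged over the 6 libraries. RBM6, RBM3, RBMX and RBM5 followed at 47.4, 32.5, 31.8 and 28.2 TPM. These 5 genes held 53% of the summed mean level of the family. The median member was at 6.27 TPM, and 11 members reached a mean of 10 TPM. At the bottom stood 5 genes under the limit for testing, 1 TPM in at least 3 libraries: RBM38, RBM23, RBM47, RBM44 and RBM46. Their values lay between 0.0258 and 0.723 TPM in every library. RBM46 and RBM44 are known mainly from germ cells, and RBM23 is the close relative of RBM39. RBM44 was at 0.0363, 0.0258 and 0.0382 TPM in wild boar and 0.107, 0.217 and 0.214 TPM in Rongchang pig.

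**Figure D1:**
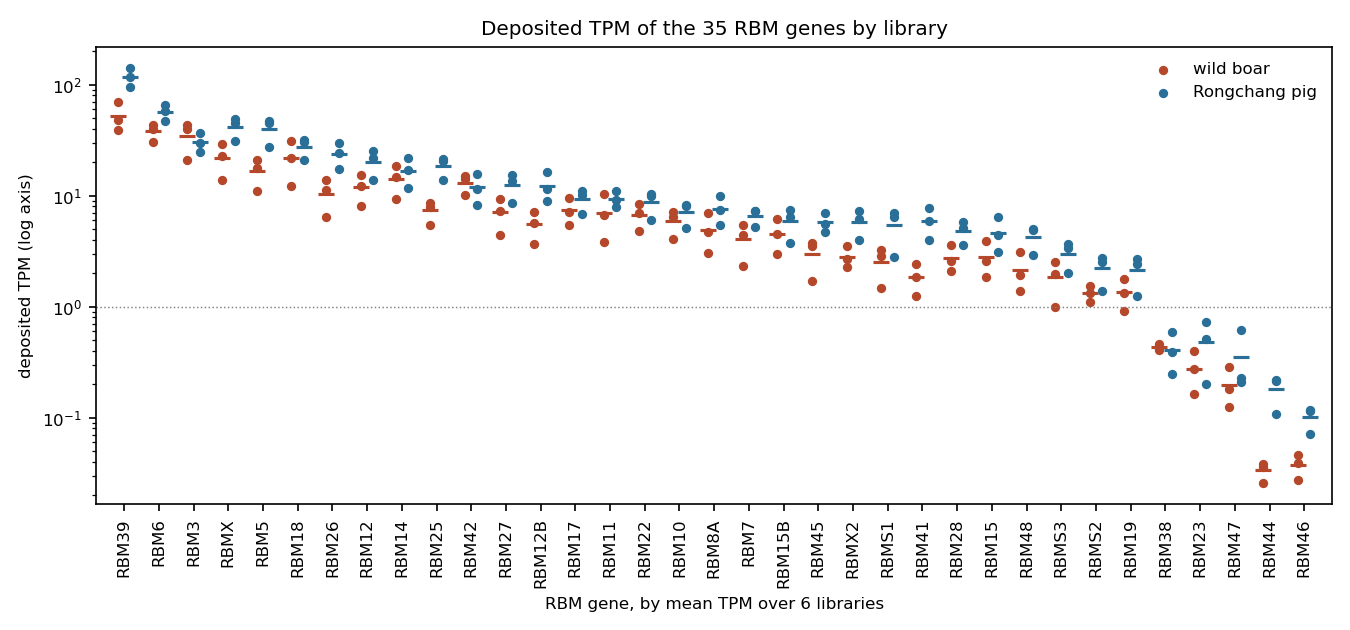
Deposited TPM on a log axis for each of the 35 RBM genes, ordered by mean level, with wild boar libraries at the left and Rongchang pig libraries at the right of each gene. Points are libraries, short bars are group means, and the dotted line marks 1 TPM; RBM39 leads at 85.0 TPM and the last 5 genes stay under the line.

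After rescaling, 7 of the 30 tested RBM genes fell in wild boar and 2 rose. The 7 were RBM41, RBM25, RBM5, RBM39, RBM26, RBM12B and RBMX, with log2 fold changes of -0.84 to -0.38. The 2 that rose were RBM3 and RBM42, by log2 0.71 and 0.70. Another 21 did not pass (limma, Benjamini-Hochberg adjustment over all genes, threshold 0.05). Of all tested genes 7.91% passed as lower and 11.6% as higher; among RBM genes the shares were 23.3% lower and 6.67% higher. Quantile scaling turned the split over all genes to 1355 lower and 1013 higher, against 929 lower and 1363 higher here, and gave 9 RBM genes lower and 2 higher. The median of the 30 was -0.14, beside 0.07 for all tested genes. Of the 30, deposited TPM gave 1 call, RBM41, as lower, and 0 as higher; of all tested genes 1.46% passed there as lower, 0.136% as higher and 1.6% in either direction. The deposited RBM median was -0.60 beside -0.41 for all tested genes, 11 members had an unadjusted p under 0.05, beside 17.8% of all tested genes, and 11 lay wholly lower in wild boar, beside 17.1%.

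RBM41, a protein of the minor spliceosome, showed the largest fall. Its rescaled level was 2.12, 2.17 and 2.14 TPM in wild boar and 4.49, 5.11 and 4.29 TPM in Rongchang pig. All wild boar libraries lay below all Rongchang pig libraries, and the wild boar libraries lay within 0.1 TPM of each other. The rescaled log2 fold change was -0.84 (SE 0.11, limma adjusted p = 0.00478, n = 3 each). For deposited TPM it was -1.27 (SE 0.35, limma adjusted p = 0.027). That call was lost when wild boar 1 or 2 or Rongchang pig 2 or 3 was left out, with adjusted p of 0.143 to 0.617, while the rescaled call held with each library left out in turn.

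RBM25, which binds near the U1 particle and steers the choice of 5′ splice sites, stood at 9.19, 9.57 and 7.65 rescaled TPM in wild boar and 15.6, 13.6 and 15.5 TPM in Rongchang pig. The groups did not overlap, and the log2 fold change was -0.70 (SE 0.12, limma adjusted p = 0.00959). RBM5, a splicing regulator of apoptosis genes, was at 20.5, 19.2 and 18.6 rescaled TPM in wild boar and 30.9, 31.3 and 32.3 TPM in Rongchang pig. Its libraries were tight within each group, with a rescaled mean of 19.4 ± 0.967 TPM in wild boar and 31.5 ± 0.727 TPM in Rongchang pig (SD, n = 3 each). The fall was -0.67 on the log2 scale (SE 0.10, limma adjusted p = 0.00754).

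RBM26 serves the nuclear machinery that hands polyadenylated transcripts to the RNA exosome. It was at 12.9, 11.3 and 12.1 rescaled TPM in wild boar and 19.6, 19.5 and 17.5 TPM in Rongchang pig, again without overlap (log2 fold change -0.60, SE 0.11, limma adjusted p = 0.0107). RBM41, RBM25, RBM5 and RBM26 passed on the rescaled scale with each of the 6 libraries left out in turn.

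The other 3 falls were less secure. RBM39 was at 55.1, 68.0 and 61.3 rescaled TPM in wild boar and 106, 77.9 and 102 TPM in Rongchang pig, and its groups did not overlap (log2 fold change -0.62, SE 0.16, limma adjusted p = 0.0299). RBMX, the hnRNP G protein, averaged 25.3 ± 0.873 TPM in wild boar and 33.4 ± 2.97 TPM in Rongchang pig (rescaled, SD, n = 3 each), a log2 change of -0.38 (SE 0.11, limma adjusted p = 0.0471). RBM12B averaged 6.46 ± 0.153 TPM in wild boar and 9.70 ± 1.26 TPM in Rongchang pig (rescaled, SD, n = 3 each), a log2 change of -0.51 (SE 0.12, limma adjusted p = 0.0221). RBM39 and RBMX each kept the call only when the library left out was Rongchang pig 2, and missed it when any other was, at adjusted p of up to 0.0993 and 0.124. RBM12B missed it without wild boar 1, 2 or 3 or Rongchang pig 1, at adjusted p of 0.0563 to 0.0699.

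RBM3, a small cold-induced protein that supports translation and synapse maintenance in mouse brain, went the other way. Its rescaled level was 49.6, 37.0 and 35.5 TPM in wild boar and 27.7, 19.7 and 26.2 TPM in Rongchang pig, without overlap (log2 fold change 0.71, SE 0.17, limma adjusted p = 0.026). RBM42, a protein found in the tri-snRNP of the spliceosome, was at 16.4, 17.9 and 13.1 rescaled TPM in wild boar and 9.18, 7.64 and 11.4 TPM in Rongchang pig (log2 fold change 0.70, SE 0.16, limma adjusted p = 0.0231). Before rescaling the groups overlapped for both genes, at log2 0.15 (SE 0.42) for RBM3 and 0.16 (SE 0.41) for RBM42. Leaving out wild boar 1 or 2 ended the rescaled call of RBM3, at adjusted p of 0.0745 and 0.059. That of RBM42 ended without wild boar 1, wild boar 2 or Rongchang pig 1, at 0.0623, 0.0767 and 0.0649. Without the filter on low values, the rescaled calls of RBM3, RBM42, RBM39 and RBMX were also lost, at adjusted p of 0.0544, 0.0501, 0.0528 and 0.052. Without wild boar 1 the deposited change of RBM3 was -0.04, and without Rongchang pig 1 that of RBM42 was -0.06.

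**Figure D2:**
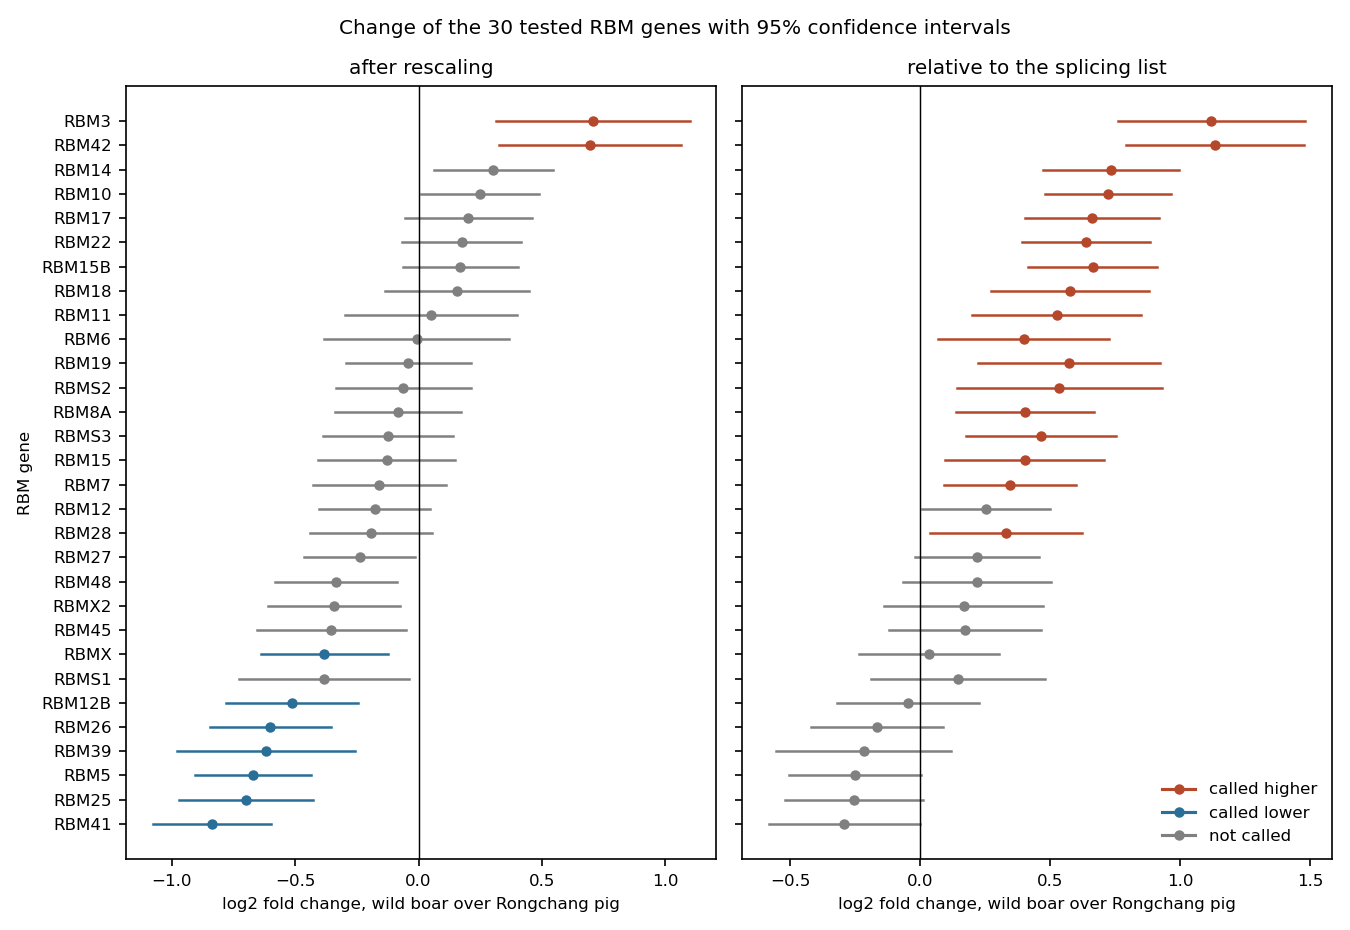
Log2 fold change of each of the 30 tested RBM genes, wild boar over Rongchang pig, after rescaling at the left and relative to the splicing list at the right; points are estimates and lines are 95% confidence intervals. At the left 7 genes down to -0.84 are called lower and RBM3 and RBM42 higher; at the right 17 genes are called higher and 0 lower.

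The splicing genes used as a yardstick were SR proteins, their kinases and cyclins and proteins of nuclear speckles, 41 genes tested, with no RBM gene among them. Of these 20 fell after rescaling, 21 did not pass and 0 rose, with a median of -0.35. Beside this and the lists below, 7.91% of all tested genes passed as lower and 11.6% as higher. The list was chosen with earlier results of these data known, so its fall serves as a yardstick and is not a finding of its own. The strongest falls in the list were those of PNISR, LUC7L3 and PRPF39, at rescaled log2 fold changes of -1.52, -1.53 and -1.28. The list's rescaled mean log2 level was 3.92 to 3.96 in the wild boar libraries and 4.34 to 4.43 in the Rongchang pig libraries. Of the 18 hnRNP genes tested, 3 fell and 15 did not pass, with a median of -0.16; HNRNPH1, HNRNPDL and HNRNPA2B1 were at -0.77, -0.61 and -0.66. Of 39 core spliceosome genes, 2 fell, PRPF3 and SNRNP70, at -0.63 and -0.45, 1 rose, LSM4, at 0.46 after rescaling but -0.08 on deposited TPM, and 36 did not pass. The core median was 0.10 after rescaling and -0.41 on deposited TPM. The RBM median of -0.14 lay between that of the splicing list and that of the core spliceosome.

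**Figure D3:**
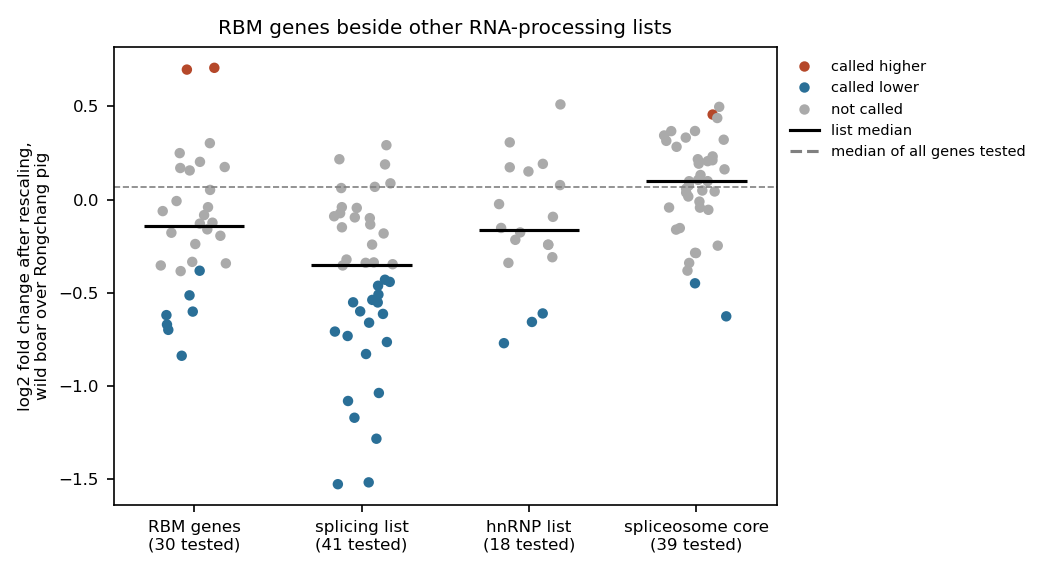
Rescaled log2 fold change, wild boar over Rongchang pig, of each tested gene in 4 lists of RNA-processing genes; points are genes, black bars list medians and the dashed line the median of all tested genes, 0.07. RBM genes run from -0.84 to 0.71 with a median of -0.14, while the splicing list reaches -1.53 with a median of -0.35.

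Which members fell with the splicing genes was tested as the difference between each RBM gene and the mean of the splicing list in the same library. This ratio is free of any scaling of whole libraries except through the pseudocount. A member above 0 here dropped less than the average splicing gene did, or rose. The list's own 41 genes scattered around their mean, from -1.10 to 0.76: 11 passed as higher, 8 as lower and 22 did not pass. Standing above the mean therefore does not by itself part a member from the genes of the list. Of the 30 members 17 passed as higher, 0 as lower, and 13 did not pass. Of all tested genes 71.3% passed as higher and 0.842% as lower, so standing above the splicing list is what most tested genes did, and 56.7% of the RBM genes did so. In either direction 72.1% of all tested genes passed. The libraries of the groups did not overlap in this ratio for 20 members as higher and 4 as lower, beside 73.3% and 1.33% of all tested genes.

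None of the 7 members that fell after rescaling passed as different from the splicing list. Yet the ratio to the list lay wholly lower in wild boar for RBM41, RBM25, RBM5 and RBM26, the 4 members just counted, and overlapped for RBM39, RBM12B and RBMX. Their differences from it ran from -0.29 for RBM41 to 0.03 for RBMX. The unadjusted 95% interval was -0.583 to -0.0024 for RBM41, which leaves out 0 (limma adjusted p = 0.0649), -0.52 to 0.01 for RBM25 and -0.51 to 0.00 for RBM5. It was -0.42 to 0.09 for RBM26, -0.56 to 0.12 for RBM39, -0.32 to 0.23 for RBM12B and -0.23 to 0.30 for RBMX. These intervals leave room for a fall deeper than that of the average splicing gene, most of all in RBM41. With 10 SR proteins as the yardstick in place of the 41 genes, RBM41, RBM5, RBM25 and RBM26 passed as lower than the list, at -0.44, -0.40, -0.40 and -0.31 (limma adjusted p = 0.0401, 0.0221, 0.0316 and 0.046). With a pseudocount of 0.1, RBM41 passed as lower than the 41 genes, at -0.59 (limma adjusted p = 0.00643), and it also passed as lower without wild boar 2, at -0.37 (limma adjusted p = 0.042).

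The 17 members that stood above the splicing list were led by RBM42 and RBM3, at 1.13 (SE 0.15, limma adjusted p = 3.57e-04) and 1.12 (SE 0.16, limma adjusted p = 4.44e-04). RBM14, a paraspeckle protein, was at 0.73, and RBM10, a splicing regulator related to RBM5, at 0.72. RBM15B, an adaptor of the m6A methyltransferase, RBM17, a factor for 3′ splice site choice, and RBM22, a protein at the catalytic core of the spliceosome, were at 0.66, 0.66 and 0.64. RBM18 was at 0.58 and RBM11, a splicing regulator of brain and testis, at 0.53. These 9 genes passed in every one of the 11 alternative settings tried for this comparison. None of the 9 was called lower after rescaling, and RBM14 was at 16.9, 16.3 and 16.3 rescaled TPM in wild boar and 13.0, 14.4 and 12.2 TPM in Rongchang pig, without overlap but short of the threshold (log2 fold change 0.30, SE 0.11, limma adjusted p = 0.0751; -0.24 on deposited TPM). It passed without Rongchang pig 2 (0.36, adjusted p = 0.0432).

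The other 8 of the 17 were RBM8A, RBM7, RBM19, RBM28, RBM15, RBM6, RBMS2 and RBMS3, at 0.33 to 0.57 above the list. RBM8A belongs to the exon junction complex, RBM7 to the nuclear exosome targeting complex, and RBM19 and RBM28 to the nucleolus, where ribosomes are made. All 8 lost the call with SR proteins as the yardstick (adjusted p = 0.0819 to 0.341). RBM7, RBM15, RBM19, RBM28, RBMS2 and RBMS3 lost it with a pseudocount of 0.1 (adjusted p = 0.0614 to 0.166). All but RBM7 of these 6 had a mean under 4 TPM, where a pseudocount of 1 shrinks a fall the most. RBM6, at 47.4 TPM, lost it without wild boar 1 or 2 or Rongchang pig 2 (adjusted p = 0.0796, 0.105 and 0.0924). RBM7 also lost it without wild boar 1 or 3, RBMS2 without Rongchang pig 1, RBM15 without wild boar 2 or 3 or Rongchang pig 1 or 3. RBM28 kept it only when the library left out was wild boar 1.

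A last 6 tested members passed neither test: RBM12, RBM27, RBM45, RBMX2, RBMS1 and RBM48. Their rescaled log2 fold changes ran from -0.38 to -0.18 and their differences from the splicing list from 0.15 to 0.25. RBM48, another protein of the minor spliceosome, was at 2.22, 2.45 and 2.74 rescaled TPM in wild boar and 3.28, 3.21 and 3.62 TPM in Rongchang pig (log2 fold change -0.33, SE 0.11, limma adjusted p = 0.0601), so its groups did not overlap although it missed the threshold. RBM27 was at 8.44, 7.84 and 8.31 rescaled TPM in wild boar and 9.60, 10.2 and 9.74 TPM in Rongchang pig. Its groups did not overlap either (log2 fold change -0.24, SE 0.10, limma adjusted p = 0.116). Relative to the splicing list, RBM48, RBM27 and RBM12 lay wholly higher in wild boar, as did 73.3% of all tested genes. RBMS1, a single-stranded DNA- and RNA-binding protein, averaged 2.91 ± 0.338 rescaled TPM in wild boar and 4.15 ± 0.955 TPM in Rongchang pig (SD, n = 3 each), with overlap. In all, the rescaled levels of 12 of the 30 members lay wholly lower in wild boar and those of 6 wholly higher, beside 17.6% and 24% of all tested genes. On deposited TPM 0 members lay wholly higher, beside 0.408% of all tested genes.

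By role, members that fell after rescaling came from 4 groups, beside 7.91% of all tested genes called lower. In the groups of RBMX, RBM12B and RBM26 the fall rests on that member alone. The calls of RBMX and RBM12B were lost when most single libraries were left out. Of 11 tested members tied to spliceosome particles or nuclear speckles, 4 fell, RBM41, RBM25, RBM5 and RBM39, RBM42 rose and 6 did not pass. Of the 2 tested tissue-specific or hnRNP-like splicing regulators, RBMX fell and RBM11 was at 0.05. Among 6 other nuclear members, which include RBM8A, RBM14, RBM12, RBM18 and RBM45, RBM12B fell and 5 did not pass. Of the 3 exosome cofactors, RBM26 fell, and RBM7 and RBM27 were at -0.16 and -0.24. Neither m6A adaptor passed after rescaling, with RBM15 at -0.13 and RBM15B at 0.17 (-0.57 and -0.31 on deposited TPM). Neither of the 2 nucleolar members passed, with RBM19 at -0.04 and RBM28 at -0.19. None of the 3 RBMS genes passed, with changes of -0.38 to -0.06.

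Ratios of related members within a library were set side by side for all 9 pairs among the tested members of 5 sets of relatives, which were chosen with values known. In 5 pairs the groups did not overlap, 4 lower and 1 higher in wild boar, and in 4 they did. How many other gene pairs separate was not determined. After rescaling, 17.6% of all tested genes lay wholly lower and 24% wholly higher in wild boar, so the count is not read as a trait of relatives. RBM5 and RBM6 are neighbours on the chromosome and related in sequence, and RBM10 is a further relative. The log2 ratio of RBM5 to RBM10 was 1.48, 1.43 and 1.56 in wild boar and 2.43, 2.51 and 2.48 in Rongchang pig, a difference of -0.99 with a spread of 0.07 in wild boar and 0.04 in Rongchang pig (SD, n = 3 each). That of RBM5 to RBM6 was -1.15, -1.48 and -1.05 in wild boar and -0.78, -0.30 and -0.55 in Rongchang pig, again without overlap. RBM6 to RBM10 overlapped, at 2.72 ± 0.17 in wild boar and 3.01 ± 0.20 in Rongchang pig (SD, n = 3 each).

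RBM26 over its relative RBM27 gave 0.61, 0.53 and 0.54 in wild boar and 1.03, 0.93 and 0.85 in Rongchang pig. RBM15 over RBM15B gave -0.82, -0.68 and -0.64 in wild boar and -0.27, -0.20 and -0.56 in Rongchang pig. Both lay wholly lower in wild boar, while RBM12 over RBM12B lay wholly higher, at 1.12 ± 0.03 in wild boar and 0.73 ± 0.17 in Rongchang pig (SD, n = 3 each). All 3 pairs of RBMS genes overlapped, with differences of -0.39 for RBMS1 over RBMS2, -0.31 for RBMS1 over RBMS3 and 0.08 for RBMS2 over RBMS3. Exact two-sided permutation tests gave p = 0.1 for the 5 separated pairs, the smallest that 3 against 3 allows, and 0.2 to 1 for the others. After Benjamini-Hochberg adjustment over the 9 pairs the permutation p was 0.18 for the 5 and 0.3 to 1 for the others. As the smallest possible permutation p of 0.1 already lies above the threshold, no pair could have passed, whatever its values. The permutation test therefore cannot decide whether any pair differs between the groups.

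**Figure D4:**
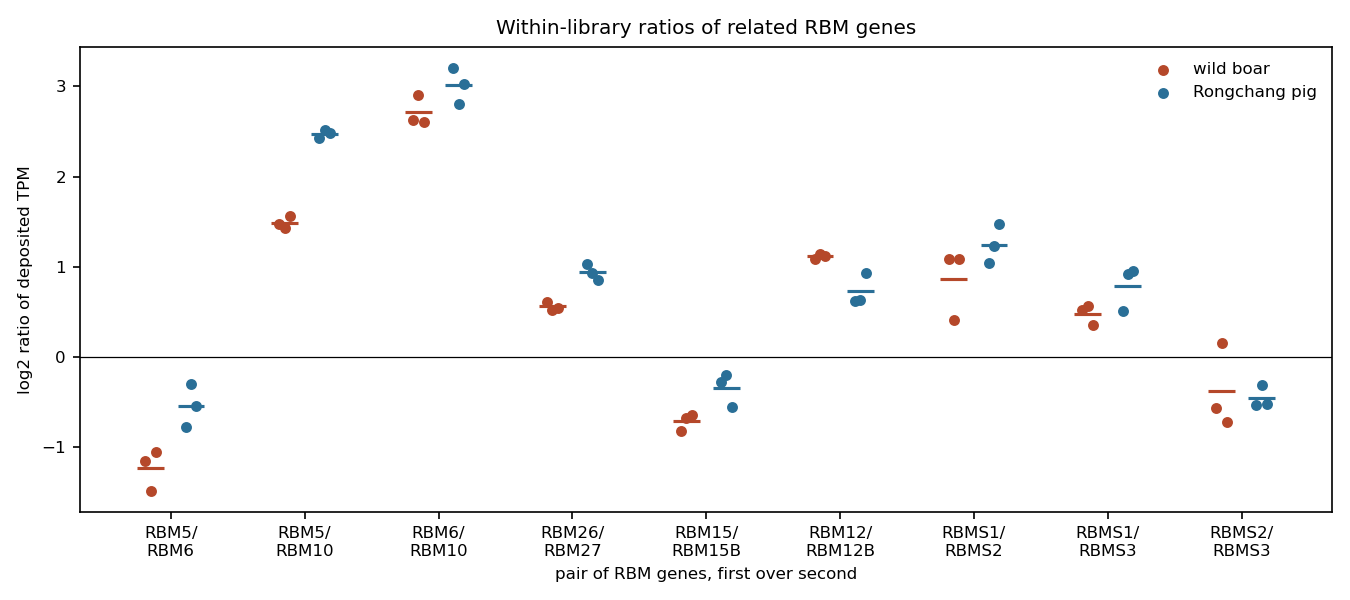
Log2 ratio of deposited TPM within each library for 9 pairs of related RBM genes, wild boar at the left and Rongchang pig at the right of each pair; points are libraries and bars are group means. RBM5 over RBM10 separates furthest, with a mean of 1.49 in wild boar and 2.47 in Rongchang pig, and 4 pairs overlap.

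The same loci were also read through circular RNAs, closed loops made by back-splicing. Of 11375 deposited circRNAs, 26 lay within 7 RBM genes. The 5 X-linked members, RBM3, RBM10, RBM41, RBMX and RBMX2, could have none, as 0 deposited circRNAs lay on chromosome X. RBM6 hosted 9, RBM26 4, RBM27, RBM39 and RBM5 3 each, and RBM25 and RBMS2 2 each. The RBM6 circRNAs took 647 of the 800 back-splice reads recovered over these 26, or 80.9%. RBM39, with the highest level of linear RNA, had 26 such reads.

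Of 24 RBM circRNAs tested with limma, 0 passed and 3 had an unadjusted p under 0.05 (of all 9709 tested circRNAs, 0.134% passed as lower and 0% as higher, and 14.5% had an unadjusted p under 0.05). Their median log2 fold change was -0.50 on deposited TPM, beside -0.45 for all tested circRNAs. In the simulation described below, 0% of circRNA changes of 1 or 2 log2 units were recovered. The fit therefore cannot decide whether RBM circRNAs differed between the groups. Positions are in the authors' coordinates, but each start is given as the base after the deposited start. The most read RBM circRNA came from RBM6, at chromosome 13, 32460816 to 32478114, plus strand. Wild boar libraries held at least 37, 56 and 31 of its reads, and Rongchang pig libraries 83, 48 and 69. That was 0.549 ± 0.0254 TPM in wild boar and 0.929 ± 0.0801 TPM in Rongchang pig (SD, n = 3 each), with a log2 fold change of -0.71 (SE 0.37, limma adjusted p = 0.397). A second RBM6 circRNA with the same end, 32471840 to 32478114, was at 0.225, 0.204 and 0.424 TPM in wild boar and 0.499, 0.583 and 0.655 TPM in Rongchang pig (log2 fold change -0.98, SE 0.46, limma adjusted p = 0.34). Another RBM6 circRNA at 32559768 to 32563493 averaged 0.239 ± 0.0434 TPM in wild boar and 0.390 ± 0.111 TPM in Rongchang pig.

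Summed over its 9 circRNAs, RBM6 gave 1.31, 1.29 and 1.34 TPM in wild boar and 2.50, 2.32 and 2.49 TPM in Rongchang pig. The groups did not overlap for the sum, but how many other host genes separate in this way was not determined. Each of the 9 had a log2 fold change below 0, the nearest to it at -0.25, although none passed. Several of the 9 share a splice end, so they are not independent readings. Of all tested circRNAs 74.3% were below 0. Linear RBM6 on the same deposited scale was at 39.5, 30.6 and 43.6 TPM in wild boar and 47.2, 58.2 and 65.3 TPM in Rongchang pig (log2 fold change -0.58, SE 0.42, limma adjusted p = 0.439). The next RBM circRNAs by level came from RBM25 and RBM26, with 15 and 12 reads over all 6 libraries. That of RBM25, on chromosome 7 at 96417876 to 96429731, had a log2 fold change of -1.49 (SE 0.67, limma adjusted p = 0.323). That of RBM26, on chromosome 11 at 51388870 to 51390018, was at 0.34 (SE 0.73, limma adjusted p = 0.853).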

How the data were processed

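Stranded libraries were made from Trizol-extracted, rRNA-depleted total RNA, per the labels' protocols. Tools listed by the submitters' processing notes, with no role stated, are STAR (2.6.0c) and BWA (0.7.17). For build, annotation, counter and strand setting the answer is not given in the sources used here. TPM values were deposited by the authors for 21280 protein-coding genes and for 11375 circRNAs, with 1 column per library and 0 unused columns. Symbols matched 14821 genes.

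Genes at 1 TPM or more in at least 3 libraries (11752) were tested on log2(TPM + 1) and circRNAs with a value in at least 3 libraries were tested on log2(TPM + 0.045), with limma 3.58.1 (mean-variance trend, R 4.3.3, two-sided, Benjamini-Hochberg adjustment over all features, threshold 0.05). On such scales the fold change of a low gene is understated. On the deposited scale limma pooled the variance wholly over genes of like level, so those SE do not measure a gene's own spread. Rescaling divided each library by its median ratio to the geometric mean over genes above 0 in all 6 libraries. The third fit subtracted each library's mean log2 level of the splicing list.

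Gene depth cannot be read from TPM. For circRNAs the values were whole multiples of 1 factor per library for 100% within a relative tolerance of 1e-04, and reads are the smallest whole solution, a lower bound; they summed to 33360 to 58670 per wild boar library and 48375 to 72167 per Rongchang pig library. A circRNA was assigned to a gene of RefSeq Sscrofa11.1 that held it whole: 98.52% had such a host, and 40.66% after a shift of 1000000 bases. In that annotation 10 of the 35 RBM genes overlap another protein-coding gene, among them RBM12B, RBM10, RBM11, RBM15B and RBM18, and without a known strand setting reads there could be shared. In human, RBMX has close copies elsewhere in the genome; whether the counting here split such reads is not known, so its level is uncertain.

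In a simulation built from the real means and spread, 200 of the 11752 tested genes were changed in each fit. They were drawn from genes with a mean above 2 on that fit's log2 scale. Relative to the splicing list this meant 2 log2 units above the list mean, a level that most RBM members did not reach. Of changes of 1 log2 unit 4% were recovered on the deposited scale, 79% after rescaling and 57% relative to the splicing list. For changes of 2 units these were 96%, 98% and 97%. The shares relative to the list therefore do not describe most members. For circRNAs 0% of changes of either size were recovered.

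The members and lists were chosen with earlier results of these data known. Named genes were members that passed in any fit (at most 20), the 5 most abundant, the 3 highest and lowest changes and the most abundant of each role; others are named to account for every member. Samples were grouped by their titles, which number the animals, and no label says more of their origin. The limma p-values rest on the spread between these samples. In them each variance was drawn toward that of features of like level, wholly so for genes on the deposited scale. Alternatives were the pseudocount, the filter, the trend, a replicate block, quantile scaling, SR proteins as the yardstick and leaving out each library.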

Additional observations from a re-analysis of the deposited data

How the results depend on the processing

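On the deposited scale, the count of RBM genes passing, 1 as reported, was 0 without the filter on low values, 4 without the mean-variance trend and 0 to 4 with 1 library left out. After rescaling it was 4 to 10 with 1 library left out against 9 as reported, and 4 of these 9 passed in all 12 settings. Over all genes, leaving out 1 library gave 318 to 841 lower and 455 to 1305 higher after rescaling, against 929 and 1363 as reported. Against the splicing list the count stayed within 12 to 21, against 17 as reported. Over all genes, 8380 of 11752 passed there as higher as reported. With SR proteins as the yardstick 5699 of 11752 did, and without the filter 15615 of 19429. The count of RBM circRNAs passing was 0 in every setting tried. As 0% of simulated circRNA changes were recovered in the main setting, this count cannot decide whether these circRNAs differed. Over all genes, 59.5% of rescaled calls were higher in wild boar, against 42.8% with quantile scaling and 45.4% with factors from tested genes alone, an alternative chosen after seeing the data; RBM calls were then 9 lower and 2 higher, and 8 lower and 2 higher. On deposited TPM 172 genes passed as lower and 16 as higher, or 8.51% higher; without the filter these were 5 and 1, with the block 61 and 9, without Rongchang pig 1 405 and 21, and without Rongchang pig 3 18 and 8. Without the filter the rescaled calls were 971 lower and 792 higher.

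Changes of sign came only in values that had not passed. With 1 library left out, deposited log2 fold changes ran from -0.0612 to 0.3737 for RBM42, -0.0369 to 0.4619 for RBM3 and -0.4685 to 0.0137 for RBM14. Rescaled ones ran from -0.1125 to 0.0371 for RBM19, -0.0852 to 0.1533 for RBM11, -0.1588 to 0.0113 for RBMS2 and -0.1345 to 0.1092 for RBM6. Differences from the splicing list ran from -0.1465 to 0.0398 for RBM12B and -0.0139 to 0.0902 for RBMX. With factors from tested genes RBM11 was at -0.0068, with SR proteins as the yardstick RBMX was at -0.1113, and with a pseudocount of 0.1 RBMS1 was at -0.0027 against the list. The causes were not tested.

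The replicate numbers did not pair the libraries: deviations of same-numbered libraries correlated at 0.111, -0.071 and -0.158, and not every library correlated best with its own number. With the replicate number as a block, 0 RBM genes passed on the deposited scale, 6 after rescaling and 15 against the splicing list. Over all 11752 tested genes the block left 61 lower and 9 higher on the deposited scale. It left 533 lower and 761 higher after rescaling, and 96 lower and 8233 higher against the list. Of the rescaled calls the block ended those of RBM42, RBM39 and RBMX, at adjusted p of 0.0641, 0.0699 and 0.0707. Gene depth cannot be recovered from TPM. The RBM circRNAs had 1 to 324 reads each, with a median of 9.5; whether read number set the lack of calls was not tested.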
